A study of Cavia porcellus with 18 samples.

Results

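CG sites that carried no methylation in either of 2 bisulfite assays were described in the hippocampus of the guinea pig (Cavia porcellus). A site was a member of the set when both methylation columns of the authors' site table listed it at 0%. Of the 167387 CG sites measured in both assays (shared sites), 25738 (15.4%) were members and 141649 were not. The methylation levels themselves chose the members, so the levels are a description and support nothing below. Distance to start sites, CG density and RNA polymerase II were not used in the choice.

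All samples were hippocampi of 3 wild type male animals, 12 weeks old, with no treatment named. Reduced representation bisulfite sequencing (RRBS) reads DNA next to MspI and ApeKI cut sites whatever its chromatin, and had 6 bisulfite libraries with reads of 50 or 100 bases. ChIP-bisulfite sequencing reads the methylation of DNA precipitated with an H3K4me1 antibody (Abcam ab8895) and had 3 libraries. H3K4me1 ChIP-seq and ChIP-seq of RNA polymerase II phosphorylated on serine 5 of its C-terminal domain (Pol II PS5, antibody 4H8, Abcam ab5408) had 3 libraries each, and 3 RRBS digestion controls without bisulfite were not used here. The deposited values pool the animals, so each site has 1 value per assay, the spread between animals is unknown and no test over animals could be made. The tissue mixes neurons and glia, and a level of 0% describes the pool of cells that was read. Cell type markers could not be checked, because the gene identifiers in the files come without symbols.

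As background, cytosines followed by guanine are methylated over most of a mammalian genome. Long stretches free of methylation lie mainly in CG-rich islands at promoters, and shorter stretches of low methylation mark enhancers where transcription factors bind. H3K4me1 is laid down at enhancers and on the flanks of active promoters, where H3K4me3 takes its place at the start site itself. Serine 5 of Pol II is phosphorylated at initiation, so Pol II PS5 gathers at active start sites and, at a lower level, at active enhancers.

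Members lay in 9490 of the 45331 H3K4me1 peaks with a shared site (20.9%) and on 247 of 302 scaffolds. The mitochondrial genome held 4 of them. A site at 0% in RRBS was usually also at 0% in ChIP-bisulfite: 83.8% of the 30705 sites at 0% in RRBS were members. Of the 62839 sites at 0% in ChIP-bisulfite 41.0% were members. Both shares count the same members, so the difference between them only restates the unequal totals. Just outside the rule, 524 sites had 0% in RRBS and 1% to 5% in ChIP-bisulfite (median 4%), and 1355 had 0% in ChIP-bisulfite and 1% to 5% in RRBS (median 4%). A further 4443 sites at 0% in RRBS stood above 5% in ChIP-bisulfite, with a median of 41%, and 35746 sites at 0% in ChIP-bisulfite stood above 5% in RRBS, with a median of 45%.

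The RRBS level of a member rested on a median of 15 reads (lowest 10, quartiles 12 and 21, highest 498), against a median of 18 for the other sites. A count of 0 methylated reads among 15 allows a level of up to 20%, and among 10 reads up to 30%, for counting error only. At least 50 reads were behind 662 members. The share of sites that were members fell with depth, from 19.7% at 10 or 11 reads to 10.2% at 30 to 49 reads, 4.77% at 100 to 199 reads and 0.469% (3 of 640 sites) at 200 reads or more. For ChIP-bisulfite the files hold no depth of single sites. In the authors' peak averages the lowest number of ChIP-bisulfite reads per C position was 10, and the median over lines with a single position was 13. These columns appear displaced by whole lines against their peaks, so the values describe lines of that table and not the members. Levels were deposited as whole percent, so a listed 0% at a deep site can also be a rounded value.

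The members were concentrated around transcription start sites. Within 1000 bases of the nearest listed start site lay 9435 members, or 36.7% (95% exact Clopper-Pearson interval 36.1 to 37.2), where the share over all shared sites was 13.6%. Of the other shared sites 9.45% lay there (9.30 to 9.61). The median distance to the nearest start was 2032.5 bases for members and 9823 bases for the others. Intervals here and below count sites as independent, although sites share reads and peaks, so they are narrower than the true error. The difference in shares had the same direction in every class of depth. Among sites with 10 or 11 reads 34.7% of members and 8.29% of the others lay within 1000 bases, and among those with 50 to 99 reads 39.7% and 11.8%.

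Along the distance axis the share of members rose towards the start site from both sides, more gradually upstream than downstream. It was 16.9% beyond 5000 bases upstream, 22.0% at 5000 to 2000 bases, 28.3% at 2000 to 1000 bases and 38.2% at 1000 to 500 bases upstream. From 500 to 250 bases upstream it reached 47.2% (45.4 to 49.1), and in the last 250 bases before the start 46.1% (44.1 to 48.2). The first 250 bases downstream stood lower, at 41.5% (39.6 to 43.3), and the next 250 bases held the highest share, 50.9% (49.1 to 52.7). The profile thus had a shallow dip just downstream of the start between a shoulder on either side. From 1000 to 2000 bases downstream the share was 16.7%, from 5000 to 10000 bases 11.01%, and beyond 100000 bases 4.72%. Median CG density of the surrounding peak, over all shared sites, was 53.4 in the first 250 bases downstream and 56.3 in the next 250. This density counts CG cytosines (of both strands) per 1000 bases and is an average over the whole peak. Sites in neighbouring bins can share a peak, so these medians cannot show the density at the dip itself. The part of local CG density in the dip was not tested.

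**Figure D1:**
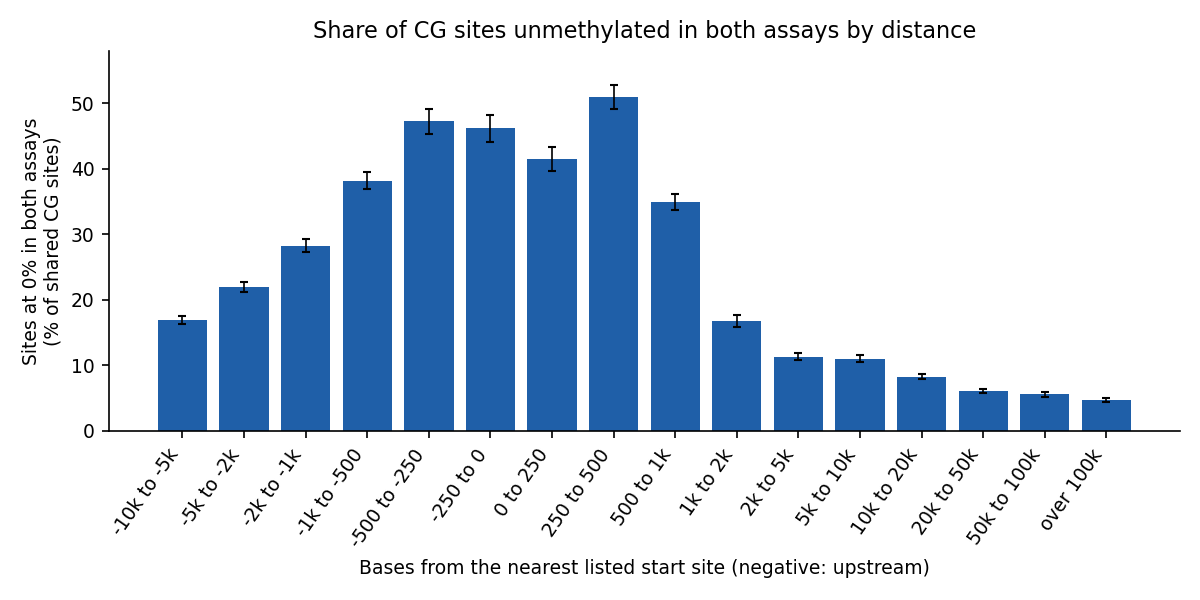
Share of shared CG sites at 0% in both assays (y axis, percent) in bins of distance from the nearest listed start site (x axis, bases, 1k being 1000, negative upstream); lines on the bars are 95% exact binomial intervals. The bars rise to 47.2% upstream and 50.9% downstream of the start, with 41.5% in the first 250 bases downstream, and fall to 4.72% beyond 100000 bases.

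Agreement between the assays followed the same axis. Among sites at 0% in RRBS, those also at 0% in ChIP-bisulfite made up 92.1% in the last 250 bases before the start and 92.1% at 250 to 500 bases downstream. The share was 81.2% at 5000 to 10000 bases downstream and 69.8% beyond 100000 bases. Sites at 0% in RRBS were thus more often at 0% in ChIP-bisulfite near start sites than far from them. Both levels chose the members, so this describes the levels only. Over all distances 62839 of the 167387 shared sites were at 0% in ChIP-bisulfite. That share was not taken by distance, so its part in the gradient was not tested, nor was that of RRBS depth.

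Sites at 0% in only 1 assay took places between the members and the rest. Within 1000 bases of a start lay 21.1% of the 4967 sites at 0% in RRBS only, 11.4% of the 37101 sites at 0% in ChIP-bisulfite only and 8.14% of the 99581 sites at 0% in neither. Median CG density stood in the same order, at 57.2 per 1000 bases for members, 39.5 for RRBS only, 31.7 for ChIP-bisulfite only and 28.0 for neither. The sites at 0% in ChIP-bisulfite only, with a median RRBS level of 44%, were closer to the sites at 0% in neither than to the members in both measures.

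Members lay in the CG-rich H3K4me1 peaks. CG density was taken from the authors' averaged peak around the site, as C positions in the genome per 1000 bases. All of these totals were even numbers, so the cytosines of both strands were counted and each CG counts as 2. The shared sites were put in 10 classes of equal size by this density. Members were 3.86% of the sites in the lowest class, with at most 14.1 CG cytosines per 1000 bases, and 45.8% (45.1 to 46.6) in the highest, from 79.8 upwards. Shares differed by distance at equal density. In the lowest class 15.1% of the sites within 1000 bases of a start were members against 2.79% of those beyond 10000 bases, and in the highest class 50.6% against 34.2%. They also rose with density at equal distance. Distal sites went from 8.29% in the eighth class to 13.2% in the ninth and 34.2% in the tenth. The difference between these slopes was not tested.

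**Figure D2:**
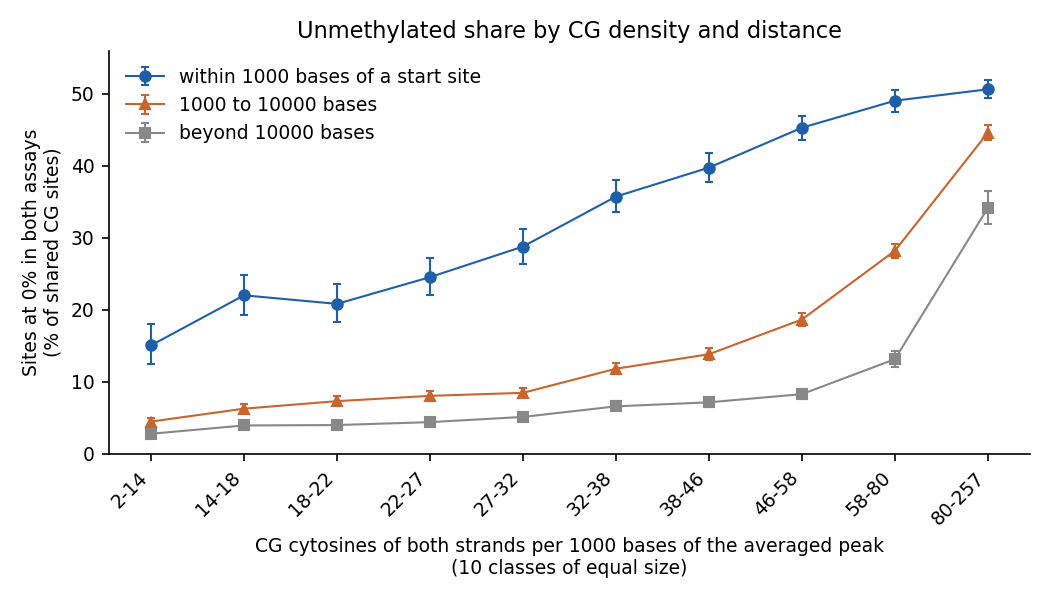
Share of shared CG sites at 0% in both assays (y axis, percent) in 10 classes of equal size by CG cytosines per 1000 bases (x axis), for 3 ranges of distance from the nearest start site; lines are 95% exact binomial intervals. Sites within 1000 bases rise from 15.1% to 50.6% and sites beyond 10000 bases from 2.79% to 34.2%, and the 3 ranges keep their order in every class.

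The pattern was the same on nearly all large scaffolds. On the 50 scaffolds with at least 1000 shared sites, members made up a median of 15.2% of the sites. The share ran from 1.58% on scaffold_927 and 6.79% on scaffold_31 to 30.5% on scaffold_70. The share of members within 1000 bases of a start was above that of the other sites on 49 of the 50, and the share beyond 10000 bases was below it on 49. The exception in both was scaffold_927, with 17 members among 1076 sites and a median of 127.5 RRBS reads per site. Scaffold_927 is therefore left out of some of the Pol II comparisons below, where this is said.

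Members came in clusters. A single member was found in 4558 of the 9490 H3K4me1 peaks with a member, while 3133 peaks held at least 3 and 41 held at least 20. The peaks with at least 3 members contained 17582 members, or 68.3% of all. Reading the shared sites of a peak in order, members formed 12687 unbroken runs. Runs of at least 3 numbered 2904, held 52.8% of the members and spanned a median of 129.5 bases. Since the members were chosen by level, this clustering describes how levels repeat between neighbouring sites, and neighbours can share reads.

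Neighbouring sites were more often alike at short distances. The pairs are pooled over peaks that differ in their overall level, and close neighbours can share reads. The part of either in the shares below was not tested. After a member, the next shared site of the same peak was also a member in 78.7% (77.6 to 79.8) of pairs 2 to 9 bases apart, in 72.3% at 10 to 49 bases and in 60.2% at 50 to 199 bases. The share was 37.6% at 200 to 999 bases, 23.5% at 1000 to 4999 bases and 9.50% (6.12 to 13.9) beyond. After another shared site the next was a member in 5.85% to 9.36% of pairs at every spacing. Neighbours of members thus stayed above neighbours of other sites up to 4999 bases, and the intervals overlapped beyond. Positions 1 base apart are the 2 strands of 1 CG, and there the share was 67.5% (65.1 to 69.8), below that at 2 to 9 bases. Of 2073 such pairs with a member, both strands were members in 1041 (50.2%).

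**Figure D3:**
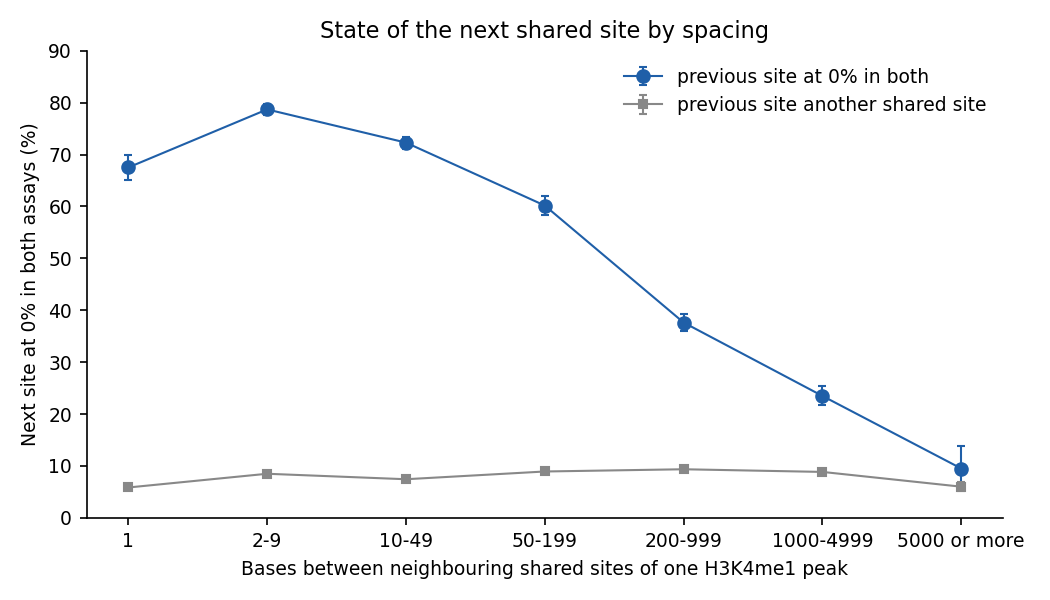
Percent of next shared sites that are at 0% in both assays (y axis) by the spacing to the previous site of the same H3K4me1 peak (x axis, bases), after a site at 0% in both and after another shared site; lines are 95% exact binomial intervals. After a member the share falls from 78.7% at 2 to 9 bases to 9.50% at 5000 bases or more, and after another site it stays between 5.85% and 9.36%.

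Long runs more often had a site near a start than lay wholly beyond 10000 bases. Of the 133 runs of at least 10 members, 84 came within 1000 bases of a start, 6 lay wholly beyond 10000 bases and 21 had at least 1 site in a Pol II PS5 peak. These criteria are unlike, since 1 site met the first and the last but the second needed every site. A long run thus meets the first and the last more easily. Of all single members 36.7% lay within 1000 bases, 17.6% beyond 10000 bases and 6.23% in a Pol II PS5 peak. The runs named next are the longest of their H3K4me1 peak. The longest of all had 21 members on scaffold_66 between 1840082 and 1841969, from -972 to 915 bases relative to the start of ENSCPOG00000025683. Its members had 12 to 55 RRBS reads (median 17), its peak had 129 CG cytosines per 1000 bases, and none of them lay in a Pol II PS5 peak. The next longest were 19 members on scaffold_49 between 12317641 and 12320140, ending 894 bases upstream of a start, and 19 on scaffold_32 between 12374212 and 12375506, with a start inside the run. Among the 10 H3K4me1 peaks with the longest runs, those on scaffold_44, scaffold_15, scaffold_27, scaffold_61, scaffold_89 and scaffold_98 also had 0 sites in a Pol II PS5 peak. The exception was the run of 18 on scaffold_3 between 74362650 and 74365911, with 3 sites in such a peak.

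The H3K4me1 peak with the most members differed from these long runs. It lay on scaffold_13 from 48344145 to 48360429, around the start of ENSCPOG00000024729 at 48355729. It held 55 members among 424 shared sites, with 11 to 190 RRBS reads (median 28), and the other 369 sites had a median RRBS level of 76%. Of the 55 members, 43 lay in 1 Pol II PS5 peak from 48355376 to 48356469, with the authors' score of 20.88. Members and methylated sites were thus side by side in the same H3K4me1 peak. Most of the members lay under this Pol II PS5 peak, but it held 87 shared sites, so other sites lay under it too. The next peaks in rank were at scaffold_304 from 280930 to 301003 (35 members of 49 sites), scaffold_0 from 87556828 to 87567830 (35 of 45) and scaffold_0 from 53199733 to 53217815 (32 of 44). None of their shared sites, members or not, lay in a Pol II PS5 peak. Values that rest on the scaffold_13 peak are given without it below.

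H3K4me1 peaks around the members had slightly other shapes and scores. On the high scale of the authors' H3K4me1 scores, from 42 upwards, lay the peaks of 99.4% of members, where the share over all shared sites was 95.4%. The peak around a member had a median width of 6242 bases against 6809 for the others. Members lay a median of 37.2% of the way from the centre to the edge of the peak, against 41.1% for the other sites. In 400 of the 18741 H3K4me1 peaks with at least 3 shared sites all sites were members. These 400 had a median width of 4082.5 bases and 59.5 CG cytosines per 1000 bases, against 5704 bases and 26.6 in the 11395 such peaks with no member. The 6946 peaks in which some sites were members were wider than both, with a median of 6702 bases and 43.7 CG cytosines per 1000 bases. They also held more shared sites, with a median of 7 against 4 in each of the other classes. A peak with more sites is more easily mixed, and the part of this in the widths was not tested.

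Far from start sites members were few, and more of them stood alone. Beyond 10000 bases lay 4535 members, or 17.6% (17.2 to 18.1), where the share over all shared sites was 44.6% and that of the other sites 49.4% (49.2 to 49.7). All of these distal members were downstream of the listed start, because listed distances end at -10001 bases upstream. Their median distance was 37115 bases and the largest 1008211 bases. Of the distal members 36.8% were the only member of their peak, against 10.2% of those within 1000 bases, and 43.1% against 77.6% were in peaks with at least 3. Distal members had a median of 14 RRBS reads and lay in peaks with a median of 36.0 CG cytosines per 1000 bases, above the 25.2 of the other distal sites and below the 62.1 of members within 1000 bases of a start.

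In 2499 H3K4me1 peaks every member was distal. They held 4229 members. A single member was found in 1669 of these peaks, at least 3 in 387, at least 5 in 112 and at least 10 in 14. Some distal peaks were thus unmethylated over many neighbouring sites. A Pol II PS5 peak overlapped 561 of the 2499 (22.4%) and 134 of the 387 with at least 3 members (34.6%). Over all H3K4me1 peaks with at least 3 shared sites, at any distance, the share was 29.0%. It was 13.9% of such peaks with no member whose nearest site was distal. The 2499 were not limited to peaks with at least 3 shared sites, so the bases differ.

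The distal peak that came first lay on scaffold_8 from 31666284 to 31670195, with 16 members among 19 shared sites. These members spanned 515 bases, 40539 to 41054 bases downstream of the start of ENSCPOG00000011671, and had 11 to 26 RRBS reads (median 19.5). No Pol II PS5 peak overlapped this H3K4me1 peak, its density was 34.7 CG cytosines per 1000 bases, and the 3 other sites had a median RRBS level of 13% and a median ChIP-bisulfite level of 0%. On scaffold_111, from 3894548 to 3897792, all 11 shared sites were members within 69 bases, with 10 to 68 reads (median 36), 10629 to 10698 bases downstream of the start of ENSCPOG00000021122. On scaffold_4, from 26888075 to 26897326, 10 of 13 sites were members within 25 bases, with 23 to 62 reads (median 41), at 148155 to 148180 bases from the nearest start. These 3 clusters were compact, and the last was the deepest read of the 10 leading distal peaks by median reads.

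The other leading distal clusters varied in the width of their peak and in the share of its sites that were members. On scaffold_86, from 363598 to 376846, 16 of 20 sites were members over 3953 bases. This peak had 131 CG cytosines per 1000 bases and 2 Pol II PS5 peaks, neither of which held a shared site of any level. On scaffold_15, from 32478091 to 32484483, 14 of 18 sites were members within 558 bases, only 10413 to 10971 bases from the start. On scaffold_24, from 26927109 to 26929039, 13 of 15 sites were members within 266 bases. In these 3 peaks members made up most of the sites. The H3K4me1 peak on scaffold_2 from 69731364 to 69931905 was 200541 bases wide and held 14 members among 215 sites, whose other sites had a median RRBS level of 71%. The peak on scaffold_13 from 26776238 to 26850557 held 13 members among 47 sites, all within 384 bases and with only 10 or 11 reads each. The remaining places went to scaffold_157 from 581292 to 595117 (12 of 23) and scaffold_24 from 7757405 to 7771185 (11 of 18). The last was the only one of the 10 with members in a Pol II PS5 peak, 2 of them. Apart from it, only the scaffold_2 peak had any shared site in one, a single site.

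Members were found in Pol II PS5 peaks more often than the other sites. Inside such a peak lay 1603 members, or 6.23% (5.94 to 6.53), where the share over all shared sites was 2.22%. Of the other sites 1.49% (1.43 to 1.55) lay in one. Without the scaffold_13 peak the shares were 6.07% and 1.44%. Sites at 0% in RRBS only stood at 2.60%, and those at 0% in ChIP-bisulfite only at 1.65%. Within 500 bases of a Pol II PS5 peak lay 20.6% of members and 5.86% of the others, where the share over all shared sites was 8.13%. The share inside was higher for members on 48 of the 50 scaffolds with at least 1000 shared sites. The exceptions were scaffold_927 (17.6% of 17 members against 41.5%) and scaffold_39 (2.04% against 2.20%).

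The difference was present near start sites, away from them and far from them. Within 1000 bases of a start 8.87% (8.30 to 9.46) of members and 4.92% (4.56 to 5.30) of the others lay in a Pol II PS5 peak, where the share over all was 6.55%. At 1000 to 10000 bases the shares were 5.21% and 1.49%. Beyond 10000 bases they were 3.37% (2.87 to 3.94, 153 members) and 0.834% (0.768 to 0.904), where the share over all was 0.988%. Most of the overlap of members near starts was upstream. In the 1000 bases upstream 13.1% of members and 6.23% of the others were in a Pol II PS5 peak, and in the 1000 bases downstream 4.95% and 3.81%. The downstream shares had close intervals (4.36 to 5.60 and 3.38 to 4.27), and without the scaffold_13 peak the intervals overlapped, at 4.31% (3.76 to 4.92) and 3.34% (2.94 to 3.79).

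Sites with many reads contributed to the share of the other sites. In the class of 200 RRBS reads or more, 52.3% of the other sites lay in Pol II PS5 peaks. Among sites with at most 200 reads, the largest gap was at 500 to 250 bases upstream, with 17.1% (15.1 to 19.2) of members and 4.20% (3.21 to 5.38) of the others. In the last 250 bases before the start the shares were 18.9% and 9.11%, and in the first 250 bases downstream 11.1% (9.39 to 13.1) and 7.19% (5.97 to 8.57). Over sites of all depths the last pair was 11.1% (9.39 to 13.1) and 9.99% (8.59 to 11.5), with intervals that overlapped. Without the scaffold_13 peak, at no more than 200 reads, it was 10.2% (8.53 to 12.1) and 6.76% (5.57 to 8.10). From 250 to 2000 bases downstream the intervals of members and others overlapped in all 3 bins. From 2000 bases downstream they were apart again, for example 5.83% of members and 1.23% of the others at 5000 to 10000 bases.

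**Figure D4:**
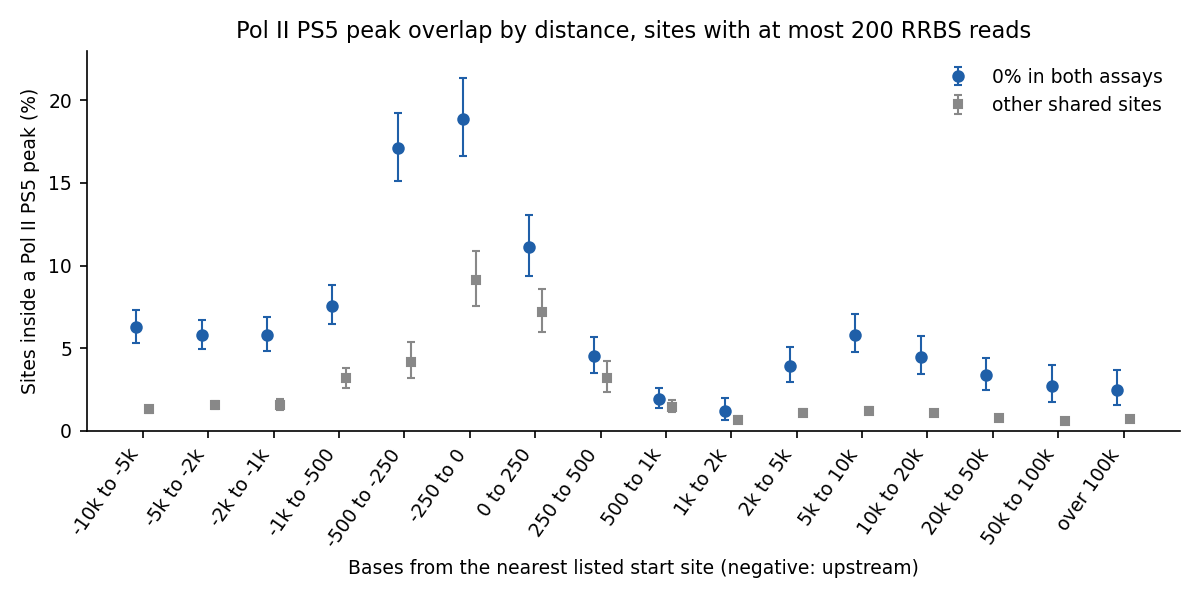
Percent of sites inside a Pol II PS5 peak (y axis) by distance from the nearest start site (x axis, bases, 1k being 1000, negative upstream) for sites at 0% in both assays and other shared sites, with at most 200 RRBS reads; lines are 95% exact binomial intervals. Members reach 17.1% and 18.9% in the 500 bases before the start, against 4.20% and 9.11%, and the intervals overlap between 250 and 2000 bases downstream.

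Pol II PS5 peaks that held a member had higher scores than those with shared sites but no member. A member lay in 753 of the 67423 Pol II PS5 peaks, and 713 held shared sites of which none was a member. The authors' score had a median of 4.94 (quartiles 3.25 and 6.97) in the first and 3.21 (2.86 and 4.15) in the second, and 3.40 over the whole list. The first were also wider, with a median of 456 bases against 248. Within 1000 bases of a start the medians were 5.54 (391 peaks) and 3.53 (93 peaks). Beyond 10000 bases they were 3.51 (84 peaks) and 3.18 (331 peaks), so the scores lay closer together there. A wider peak also holds more sites, with a median of 2 against 1.

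Of the 373 Pol II PS5 peaks with at least 3 shared sites, all sites were members in 138 (37.0%) and none in 95 (25.5%). Among the 18741 H3K4me1 peaks with at least 3 shared sites these counts were 400 and 11395. The lists are unlike in width, with a median of 6011 bases for these H3K4me1 peaks and 259 over all Pol II PS5 peaks. Sites close together more often shared their state, and the part of width in this contrast was not tested. A peak with no member can still hold sites of any level above 0% in either assay. After the scaffold_13 peak, with 43 members among 87 sites, the most members were in the one on scaffold_73 from 7671849 to 7672149 (12 of 13, score 5.19, with its nearest site 2652 bases upstream of a start). It was followed by those on scaffold_108 from 1914610 to 1915389 (11 of 11, score 6.30), scaffold_407 from 6394 to 7007 (10 of 13, score 28.85) and scaffold_2 from 10924604 to 10925466 (9 of 11, score 14.52). In each of these last 4 most of the shared sites were members.

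Counted by H3K4me1 peak, overlap with Pol II PS5 was again more frequent where members were present. Among peaks with at least 3 shared sites whose nearest site lay within 1000 bases of a start, a Pol II PS5 peak overlapped 38.6% of those with no member, 57.8% of those with 1 or 2 and 52.6% of those with at least 3. At 1000 to 10000 bases the shares were 24.4%, 34.9% and 40.2%, and beyond 10000 bases 13.9% (13.1 to 14.8), 21.8% (19.6 to 24.2) and 32.8% (27.9 to 38.1). Away from start sites the share went up with the number of members, and near them it was lower at 3 or more members than at 1 or 2. Distal peaks with at least 3 members were also wider than those with none, with a median of 6424 against 5320.5 bases, and CG-richer, with 46.4 against 24.8 CG cytosines per 1000 bases. The part of width and density in this difference was not tested.

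The authors' site table also gives a Pol II score per transcript, which is 0 for most transcripts and above 0 for 7396 of 20111. A site counts as scored when any transcript it is listed with has a score. Taken over all distances, the transcripts listed with members had a score less often: 58.7% (58.1 to 59.3) of members had one, against 67.5% (67.2 to 67.7) of the other sites and 66.1% over all shared sites. This goes the opposite way to the overlap with Pol II PS5 peaks. Sites far downstream of a start had a score most often, 95.3% of the other sites and 93.4% of the members beyond 100000 bases. Members were rare there. The part of distance in the lower share of members over all distances was not tested. Within 1000 bases of a start 66.8% (65.9 to 67.8) of members and 64.6% (63.7 to 65.4) of the others had a scored transcript, where the share over all was 65.5%. At 1000 to 10000 bases the shares were 47.6% and 53.9%, and beyond 10000 bases 70.4% and 79.3%, where the share over all was 78.8%. Among scored sites the median score was 3.82 for members and 3.55 for the others, and near starts 4.42 and 4.49. Members were below the others on 40 of the 50 scaffolds with at least 1000 shared sites, and above them on 9.

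The comparison near start sites depended on CG density. With scaffold_927 and the scaffold_13 peak left out, 77.5% to 86.4% of the members within 1000 bases of a start had a scored transcript in each of the 8 lower classes of density, against 53.9% to 65.6% of the others. In the ninth class the shares were 68.7% and 64.3%. In the tenth class they were 48.8% (47.0 to 50.5) of 3109 members and 62.6% (60.5 to 64.7) of 2149 others, the opposite order. Overlap with Pol II PS5 peaks changed in the same place. In the lowest 2 classes its intervals overlapped, at 1.01% (0.0256 to 5.50) against 0.717% (0.196 to 1.83) and 3.54% (1.43 to 7.15) against 1.85% (0.991 to 3.15). Overlap was 19.1% against 2.30% in the sixth class, 11.7% against 1.88% in the eighth and 7.64% against 2.29% in the ninth. In the tenth it was 4.18% (3.51 to 4.95) against 6.47% (5.46 to 7.59). These shares include sites with over 200 RRBS reads. At no more than 200 reads, with scaffold_927 and the scaffold_13 peak kept, the tenth class stood at 5.45% against 11.3%. In the most CG-rich class members near starts were thus less often scored and less often in a Pol II PS5 peak than the other sites near starts. Beyond 10000 bases the tenth class held 2.83% (1.62 to 4.55) of members and 1.68% (0.998 to 2.64) of the others in such a peak, with intervals that overlapped. Over all distances the shares in this class were 2.95% (2.58 to 3.35) and 3.37% (2.98 to 3.80), which also overlapped.

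The same fall was seen with genes as the unit. Here a gene has a score when its own transcript nearest to the site has one, and it was counted with a member where at least 1 member lay within 1000 bases of its start, in that class of density. In the first class 67.1% (55.1 to 77.7) of 73 genes with a member had a score, against 28.4% (23.8 to 33.4) of 359 genes without. In the sixth class the shares were 68.2% (62.4 to 73.6) of 283 and 38.9% of 388 genes, and in the ninth 52.0% of 663 and 38.9% of 447. In the tenth they were 32.5% (29.2 to 35.9) of 794 genes with a member and 36.2% (30.8 to 41.98) of 298 without, with intervals that overlapped. Genes without a member stayed between 28.4% and 40.4% in all 10 classes, so the fall lay among the genes with one. Counting a score of any transcript listed with the sites, as for sites above, the tenth class stood at 51.0% (47.5 to 54.5) with a member and 58.4% (52.6 to 64.0) without. On that count the ninth class stood at 69.4% and 59.5%, and genes without a member ran from 47.1% to 60.6%. The difference between the classes was not tested.

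**Figure D5:**
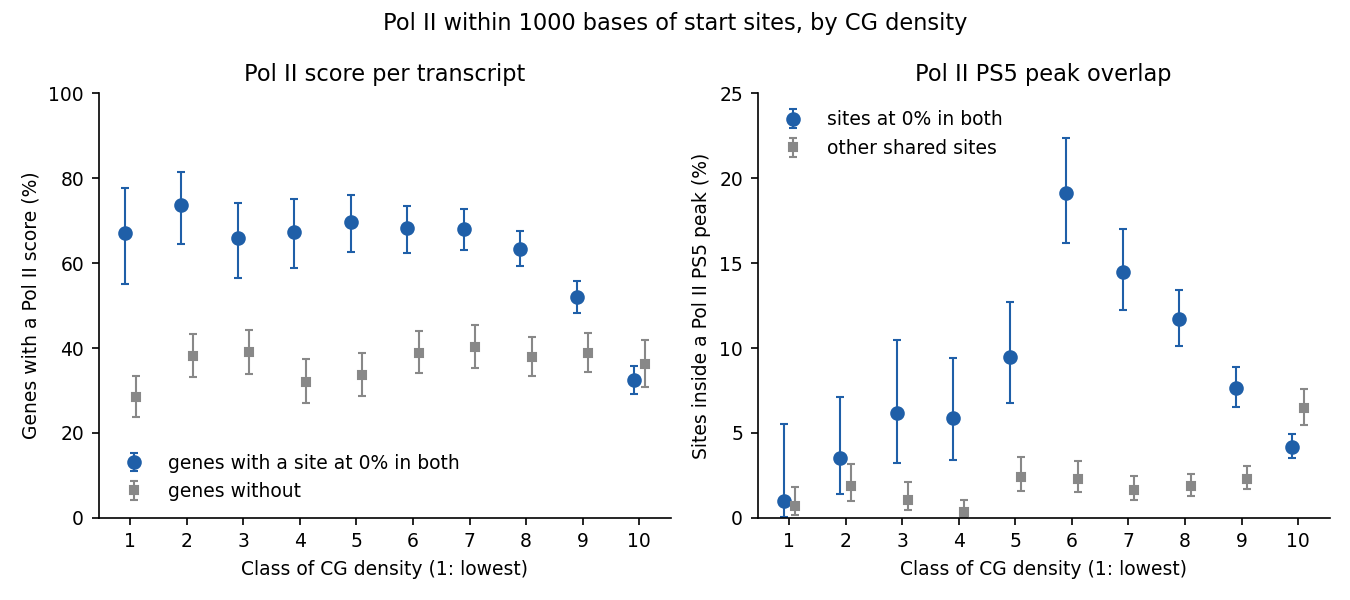
Left, percent of genes with a Pol II score (y axis) by class of CG density (x axis, 1 lowest, 10 highest), for genes with and without a site at 0% in both assays within 1000 bases of the start; right, percent of sites within 1000 bases of a start inside a Pol II PS5 peak. Both leave out scaffold_927 and the scaffold_13 peak. Lines are 95% exact binomial intervals. Genes with members stand at 63.4% or more up to the eighth class, at 52.0% in the ninth and at 32.5% in the tenth, and on the right members stand at 4.18% against 6.47% in the tenth.

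Over all densities, 6948 genes had a shared site within 1000 bases and 3284 of them (47.3%) had a member there. Of the 3022 genes with at least 3 such sites, 919 had no member, 1650 had members and other sites, and in 453 all sites were members. A Pol II score was given for 38.2% (35.0 to 41.4), 51.9% (49.4 to 54.3) and 58.5% (53.8 to 63.1) of these genes. A site in a Pol II PS5 peak was found for 2.83%, 12.8% and 16.1%. Among the scored genes the median score was 3.56, 4.07 and 4.07. Start sites free of methylation at every site read were thus most often scored, with an interval that overlapped that of the mixed start sites.

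The share of scored genes did not go up steadily with the number of members at a start. A score was given for 36.4% of the 3664 genes with 0 members, 57.4% of the 1973 with 1 or 2, 55.9% of the 892 with 3 to 5, 48.8% of the 330 with 6 to 9 and 39.3% (29.1 to 50.3) of the 89 with at least 10. Median CG density rose along this order from 33.6 to 97.3 CG cytosines per 1000 bases. Genes with at least 10 shared sites but fewer than 10 members had a score in 45.3% (38.3 to 52.4) of 201 cases, so this part of the fall could not be told from the number of sites. At 3 to 5 shared sites, where the number of sites was alike, 60.0% (55.9 to 64.0) of 585 genes with at least 3 members and 37.8% (34.4 to 41.4) of 772 genes with none had a score.

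The 20 genes with the most members within 1000 bases of their start had 13 to 51 (median 15). Only 6 of them had a Pol II score, from 2.74 to 20.88, and 14 had none. ENSCPOG00000024729 on scaffold_13 was first, with 51 members among 127 sites, 43 of them in a Pol II PS5 peak. It was the only one of the 20 with a member in such a peak. ENSCPOG00000025683 on scaffold_66 was next, with 21 members among 22 sites and no score. Among the others, the start at 12374348 on scaffold_32 was the only one of the 20 at which all sites were members, 16 of 16, and it had no score. Among all 6948 genes 45.5% had a score, and among the 290 with at least 10 shared sites 43.4%. A shared site in a Pol II PS5 peak, member or not, was found for 6.94% of the 6948 and 15.5% (11.5 to 20.2) of the 290.

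Members were also listed with more genes. Listed with at least 2 genes were 36.2% of members and 21.7% of the other sites. Near start sites, 4.53% (4.12 to 4.96) of members and 3.93% (3.61 to 4.27) of the others lay within 1000 bases of starts on both strands, and these intervals overlapped.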

How the data were processed

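The members and all thresholds were chosen with earlier results of these data known. Per the submitters' processing notes, ChIP-seq was processed with HOMER 4.6, MACS2, SAMtools 1.1 and Bowtie2 2.2.3, ChIP-bisulfite with methylKit, HOMER, MACS2, SAMtools 1.1 and Bismark 0.12.5, and RRBS with methylKit, SAMtools 1.1 and BSMAP 2.74, with no role or order stated. Scaffold positions are printed as deposited; the build, and whether positions count from 0 or 1, are not given in the sources used here. No sequence is shown, since no genome was used here.

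Methylation levels were deposited as whole percent per CG site, with all animals together, per the file headers. RRBS reads per C position were deposited by the authors as counts, for positions with at least 10 reads. ChIP-bisulfite counts were deposited per peak only, and, as these columns appear displaced by whole lines against their peaks, they were used only for reads per position within a line. Peak and transcript scores are the authors', with scaling not stated, and were used to describe or filter within a list.

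The 241970 lines of the site table, 1 per site and transcript, were reduced to 167387 sites, each with its nearest start and the highest score of its transcripts. A site lay in a peak when its position fell from the start to before the end. RRBS reads were joined by position. CG density came from 99978 averaged peaks, a finer set than the 327682 peaks of the H3K4me1 list, with 25733 of the members inside one. Shares carry exact Clopper-Pearson 95% intervals (scipy 1.17.1), for counting error only. No test was made, since animals are pooled and sites are not replicates. None of the 19244 gene identifiers matched a symbol, so gene lists and cell type markers were not used. Leading genes, runs and peaks were those with the most members, ties by summed RRBS reads. Joining of sites to peaks and starts was tested on simulated data.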

Additional observations from a re-analysis of the deposited data

How the results depend on the processing

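In all 43 alternatives the members' share stayed on the same side of that of the other sites, and in 23 it stayed inside the interval of the reported share. For the share in H3K4me1 peaks with at least 3 members, 8 of the 43, the side was all but fixed in advance. Those peaks were chosen by counting members, so these 8 carry no weight. With at least 20 RRBS reads 38.4% of members lay within 1000 bases of a start, 15.5% beyond 10000 bases and 7.38% in Pol II PS5 peaks, 59.5% had a scored transcript and 52.0% were in peaks with at least 3 members. With at most 1 member and 1 other site kept per H3K4me1 peak the first 4 shares were 29.1%, 27.0%, 5.40% and 61.6%, and clusters have no value. With the first listed start in place of the nearest, 25.5% were near and 25.2% distal. Within 500 bases lay 20.1%, and beyond 20000 bases 12.5%. With levels of at most 5% in both assays 18.1% were distal and 69.3% in clusters. In the upper part of Pol II PS5 peaks by score, from the median of 3.40, lay 4.43%, and within 500 bases of any such peak 20.6%. With the nearest transcript only, 46.0% had a score. With strands of a CG counted once 66.1% were in clusters, and with at least 5 members per peak 46.9%. Leaving out the scaffold_13 peak or scaffold_927, chosen after seeing the data, moved no share out of its interval. The cause of these shifts was not tested beyond the narrower or wider definitions themselves. No paired analysis was possible because the files hold 1 value for all animals. Depth is a limit: at the median of 15 RRBS reads a level of up to 20% can be read as 0%.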
